A study of Mus musculus with 30 samples.

Results

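The genes described here carry antigen presentation on MHC class II and the costimulatory signals that go with it. They were chosen by name: 3 class II chains (H2-Aa, H2-Ab1, H2-Eb1), the peptide exchange factor H2-DM (H2-DMa, H2-DMb1), the invariant chain Cd74, the transactivator Ciita, and the costimulatory molecules Cd80, Cd86 and Cd40. All 10 were among the 24063 genes of the macrophage count table, and all 10 were among the 11544 genes with enough counts to be tested. Every library came from primary mouse cells, either macrophages drawn into the peritoneum by thioglycollate or hepatocytes, with polyadenylated RNA sequenced from 18 macrophage and 12 hepatocyte libraries.

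Macrophages were cultured in RPMI and hepatocytes in Hepatozyme. For 24 h before treatment every group, vehicle included, was kept in 10% lipid-deficient FBS with 10 uM of mevastatin, a statin that inhibits sterol synthesis, and with mevalonate at 50 uM. Ligand exposure lasted 18 to 20 h. The 6 groups of each cell type received vehicle (DMSO / EtOH), desmosterol at 10 uM, DMHCA at 1 uM, MePipHCA at 1 uM, GW3965 at 1 uM or T0901317 at 1 uM. Desmosterol is a sterol precursor of cholesterol and a ligand of the liver X receptors (LXR), DMHCA and MePipHCA are cholenamides with different amide groups, and GW3965 and T0901317 are non-steroidal LXR agonists. Each macrophage group had 3 libraries and each hepatocyte group 2. Nothing in the labels says that these came from separate animals or cultures, so p-values measure only how far these samples vary, a spread that may be technical. The labels name no interferon or other added stimulus of class II expression.

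Class II molecules bind peptides from endosomes and show them to CD4 T cells. Their α and β chains assemble on the invariant chain, whose remnant is later exchanged for peptide with the help of H2-DM. Transcription of the class II genes depends on CIITA, a coactivator recruited to paired X and Y boxes by the RFX and NF-Y complexes, and interferon gamma induces CIITA in macrophages. CD80 and CD86 engage CD28 or CTLA-4 on the T cell, and CD40 receives the T cell's CD40 ligand.

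Promoter windows from RefSeq's GRCm38.p6 annotation were searched for 5 of the 10 genes: H2-Aa, H2-Eb1, H2-DMa, H2-DMb1 and Cd80. They run from 250 bases before the transcript start to 50 after it, with 6 windows in all because H2-DMa has 2 starts. No window was at hand for H2-Ab1, Ciita, Cd86 and Cd40, and the promoter of Cd74 is not reported here. The 150 bases before the start are shown for the 3 genes whose window held the core letters GNAACT of an X box followed 25 to 35 bases later by the core letters TGATTGG of a Y box and which all fell with MePipHCA in the comparison that follows. Capitals mark those letters, and each sequence reads 5′ to 3′ toward its gene, from chr17:34287824-34287973 on the minus strand for H2-Aa, chr17:34305717-34305866 on the plus strand for H2-Eb1 and chr17:34153041-34153190 on the plus strand for H2-DMb1.
H2-Aa: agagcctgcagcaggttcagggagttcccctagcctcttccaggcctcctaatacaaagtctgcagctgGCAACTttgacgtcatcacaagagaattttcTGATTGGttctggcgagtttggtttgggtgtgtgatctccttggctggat
H2-Eb1: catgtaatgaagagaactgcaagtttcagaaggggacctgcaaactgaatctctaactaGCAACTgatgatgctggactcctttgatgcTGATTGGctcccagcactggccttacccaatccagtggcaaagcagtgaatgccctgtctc
H2-DMb1: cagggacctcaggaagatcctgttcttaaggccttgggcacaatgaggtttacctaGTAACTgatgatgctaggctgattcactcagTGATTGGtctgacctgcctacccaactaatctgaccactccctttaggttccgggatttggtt

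The spacing from the first letter of GNAACT to the first of TGATTGG was 31 bases in H2-Aa and H2-DMb1 and 30 in H2-Eb1. TGATTGG began 50, 61 and 63 bases before the start used for the window in H2-Aa, H2-Eb1 and H2-DMb1. For H2-Aa that start lies upstream of the start of the counted transcript, at 34287771. With both strands searched, 7.82% of all 32851 windows of this length held TGATTGG, 42.8% held GNAACT and 0.131% (43 windows) held the ordered pair. The H2-DMa windows held no TGATTGG, and the second of them and the Cd80 window held GNAACT alone. H2-DMa and Cd80, where the search found no pair, fell with MePipHCA as well, by 1.11 ± 0.19 and 0.79 ± 0.24 on the log2 scale. A search for these exact letters cannot show that X and Y boxes are absent, and their part in the fall was not tested. These letters were chosen after the sequences had been seen, the matches are a description, and binding was not measured here.

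On mm10 the class II genes lie together on chromosome 17, with the counted transcripts of H2-DMa at 34122832 to 34139101, H2-DMb1 at 34153191 to 34160229, H2-Ab1 at 34263227 to 34269418, H2-Aa at 34282751 to 34287771 and H2-Eb1 at 34305867 to 34316674. Chromosome 16 holds Ciita at 10480072 to 10527564, Cd86 at 36603869 to 36666077 and Cd80 at 38458933 to 38486932. Cd40 lies on chromosome 2 at 165055636 to 165071654. Counts were taken over the exons of 1 transcript per gene, which for Cd40 was a non-coding one.

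In vehicle-treated macrophages, class II transcripts were present at modest levels. Per transcript length, the invariant chain Cd74 stood highest at 74.7 ± 1.85 RPKM (SD, n = 3), followed by the α chain H2-Aa at 28.9 ± 2.59 and the β chain H2-Ab1 at 23.5 ± 0.228 RPKM. The DM β chain H2-DMb1 at 14.4 ± 1.08 and the β chain H2-Eb1 at 13.3 ± 0.712 RPKM overlapped between libraries, and theirs were the neighbouring levels in the order that did so. Below them came the DM α chain H2-DMa (6.72 ± 0.577 RPKM), Cd80 (3.10 ± 0.248), Cd86 (2.49 ± 0.436), Cd40 (0.849 ± 0.263) and Ciita (0.318 ± 0.0821). On the same RPKM scale the class I heavy chain H2-K1 stood at 481 ± 1.71 and the macrophage lysozyme Lyz2 at 8960 ± 353. Ciita and Cd40 rested on 3 to 38 and 7 to 38 counts per library, against 288 to 1818 for Cd74, which limits what can be said of the regulator and the receptor.

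Library totals ran from 3862655 to 15685961 exon counts in macrophages and from 6627812 to 18626562 in hepatocytes. The LXR target Abca1, a cholesterol exporter, rose with all 5 ligands in macrophages, by 2.99 ± 0.05 on the log2 scale with desmosterol up to 4.33 ± 0.05 with T0901317. Of 10 macrophage markers 9 were in the table, and their summed level was 16200 to 16300 CPM (counts scaled to a common library size) in vehicle libraries. Among 8 dendritic cell markers the integrin Itgax was abundant at 836 ± 26.4 CPM in vehicle (n = 3), while the other 7 were low, with 4 (Xcr1), 9 (Cd209a), 10 (Flt3), 18 (Ccr7), 83 (Clec9a), 165 (Zbtb46) and 466 (Batf3) counts over all 18 libraries. Of 6 B cell markers in the table, Cd22 gave nearly all of the sum, and Pax5, Cd79a and Ms4a1 had 14, 67 and 76 counts over the 18 libraries. In bulk RNA, fewer cells of a type and less RNA per cell cannot be told apart.

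Changes over vehicle are given as log2 fold change ± SE, and a gene rose or fell only where edgeR's quasi-likelihood p, adjusted over all 11544 genes by the Benjamini-Hochberg method, was below 0.05. The SE was derived as the absolute log2 fold change divided by the square root of the test's F statistic. The 95% intervals were built from that SE. The 5 comparisons share the same 3 vehicle libraries.

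**Figure D1:**
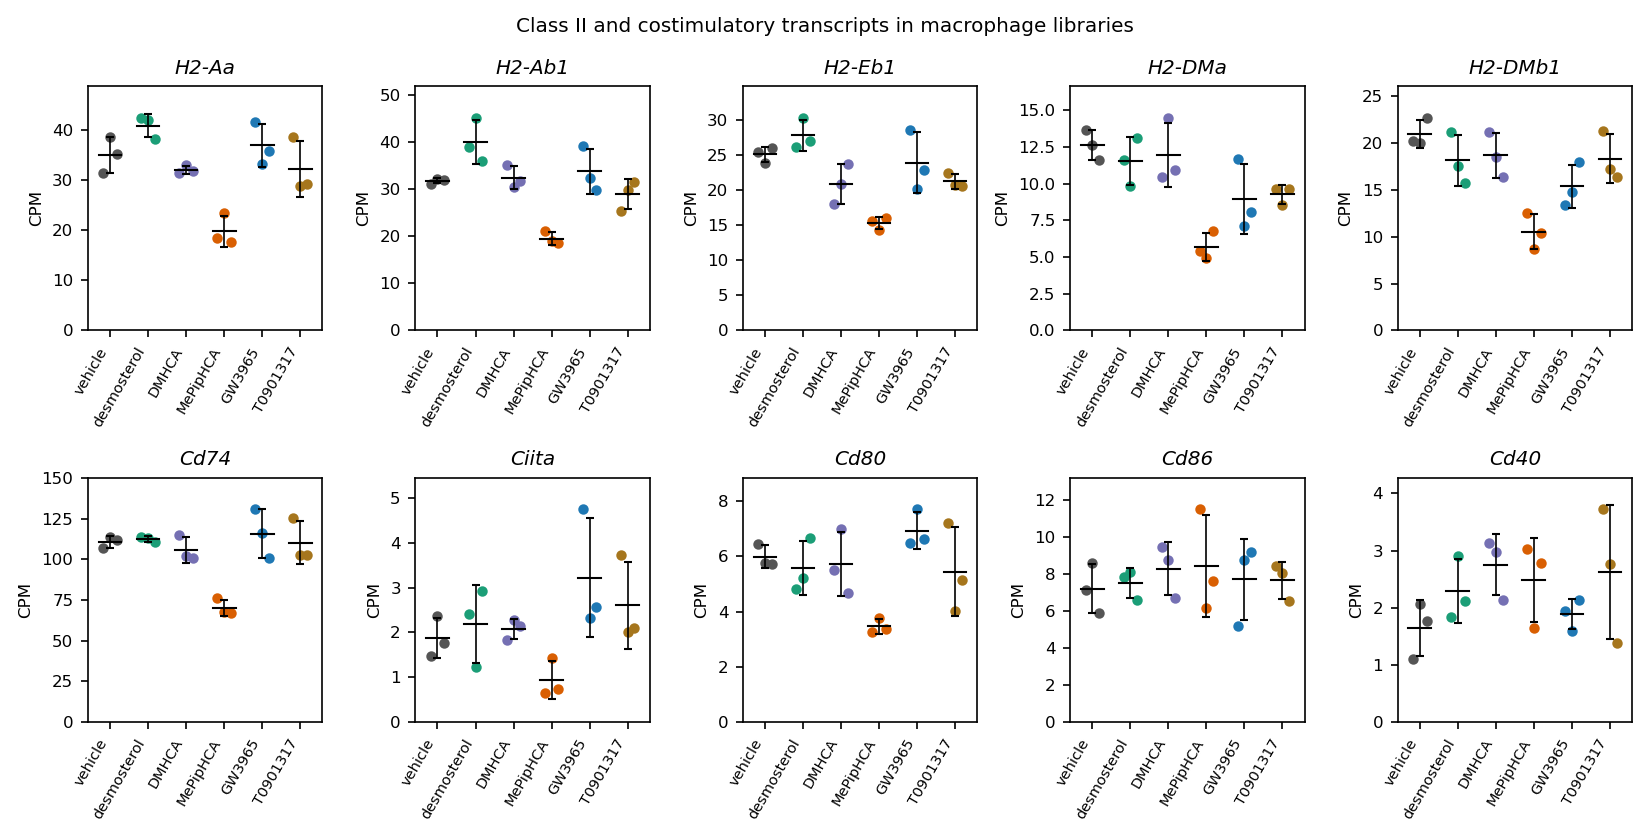
Level of each of the 10 genes in every macrophage library, in CPM on a linear axis from 0, with points for libraries, a wide bar for the group mean and a whisker for its SD (n = 3). The 3 MePipHCA libraries lay below all 3 vehicle libraries for 8 of the 10 genes, Cd86 and Cd40 being the others.

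With MePipHCA the class II genes fell together. H2-Aa, H2-Ab1, H2-Eb1, H2-DMa, H2-DMb1, Cd74 and the CD28 ligand Cd80 all fell, 7 of the 10 genes, in a comparison where 18.3% of all tested genes fell. The fall was 1.58-fold to 2.16-fold over the 6 class II genes. The median change of the 10 genes was −0.75 on the log2 scale, beside 0.003 over all genes tested. The libraries lay below every vehicle library for 8 of the 10 genes, as they did for 24.2% of all genes.

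The α chain H2-Aa measured 31.4, 38.6 and 35.3 CPM in the vehicle libraries and 18.4, 23.4 and 17.6 CPM with MePipHCA. All MePipHCA libraries were lower, and H2-Aa fell by 0.85 ± 0.12 (adjusted p = 1.4e-07). Its partner H2-Ab1, the β chain of the I-A molecule, went from 31.1, 32.1 and 32.0 CPM to 21.0, 18.9 and 18.5 CPM. The groups did not overlap here either, with a change of −0.71 ± 0.12 (adjusted p = 2.75e-06). H2-Eb1, the β chain of I-E, gave 25.5, 23.99 and 26.1 CPM in vehicle and 15.6, 14.4 and 16.1 CPM with MePipHCA, again without overlap, and fell by 0.70 ± 0.12 (adjusted p = 1.39e-05).

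The DM genes fell by more than the chains in point estimate. H2-DMa stood at 13.7, 12.6 and 11.7 CPM in vehicle and at 5.41, 4.95 and 6.75 CPM with MePipHCA, a change of −1.11 ± 0.19 (adjusted p = 5.99e-06) between groups that did not overlap. H2-DMb1 gave 20.2, 20.1 and 22.7 CPM in vehicle and 12.6, 8.73 and 10.4 CPM with MePipHCA, all lower, and changed by −0.98 ± 0.15 (adjusted p = 9.14e-07). The intervals of H2-DMa (−1.49 to −0.73) and H2-Aa (−1.09 to −0.61) overlapped. H2-DMb1 has a near copy, H2-DMb2, which was listed with 0 to 4 counts per library, and reads shared between them may have been split.

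Cd74, the invariant chain that escorts new class II molecules, measured 107, 114 and 112 CPM in vehicle and 76.0, 67.9 and 67.0 CPM with MePipHCA. The highest MePipHCA library was well below the lowest vehicle library, and Cd74 fell by 0.66 ± 0.08 (adjusted p = 6.75e-09). The transactivator Ciita had 16, 38 and 21 counts in the vehicle libraries and 3, 6 and 5 with MePipHCA. In CPM these were 1.48, 2.37 and 1.77 against 0.65, 1.42 and 0.73, with every MePipHCA library below vehicle. The change of Ciita was −1.08 ± 0.47 (95% interval −2.03 to −0.13) and did not pass over all genes (adjusted p = 0.0691). It passed in 1 of 13 alternative settings, the fit on the 2 groups alone (0.043), and its adjusted p reached 0.257 in the others.

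Of the 3 costimulatory genes, Cd80 fell, and Cd86 and Cd40 did not pass the test. Cd80 measured 6.46, 5.75 and 5.74 CPM in vehicle and 3.25, 3.77 and 3.37 CPM with MePipHCA, without overlap, and fell by 0.79 ± 0.24 (adjusted p = 0.00784). The call rested on 15 to 23 counts in the MePipHCA libraries and did not pass when libraries were thinned to equal depth (adjusted p = 0.0924). Cd86, the other CD28 ligand, ranged from 5.91 to 8.56 CPM in vehicle and from 6.13 to 11.5 CPM with MePipHCA, a change of 0.21 (−0.22 to 0.63). Cd40 ranged from 1.11 to 2.06 and from 1.65 to 3.03 CPM, a change of 0.59 (−0.15 to 1.32). Both genes overlapped vehicle.

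Other cells' markers moved in this comparison too. The summed level of the 6 stromal markers was 260 to 330 CPM in vehicle and 77.3 to 91.1 CPM with MePipHCA, and all 6 fell. The 4 mesothelial markers went from a sum of 20.0 to 25.7 CPM to one of 7.55 to 8.80 CPM, with 3 down. The macrophage marker sum was 12900 to 13100 CPM with MePipHCA, 5 of 8 tested markers falling and 1 rising, among them the receptor Csf1r (−0.88 ± 0.05), the complement gene C1qa (−1 ± 0.09) and the phagocytic receptor Mertk (0.56 ± 0.05). The dendritic cell sum was 811 to 857 CPM in vehicle and 694 to 750 CPM with MePipHCA, nearly all of it Itgax (−0.24 ± 0.05), and the B cell sum was 124 to 129 and 99.8 to 110 CPM, nearly all of it Cd22 (−0.25 ± 0.06). The part of these shifts in the fall of the class II genes was not tested.

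**Figure D2:**
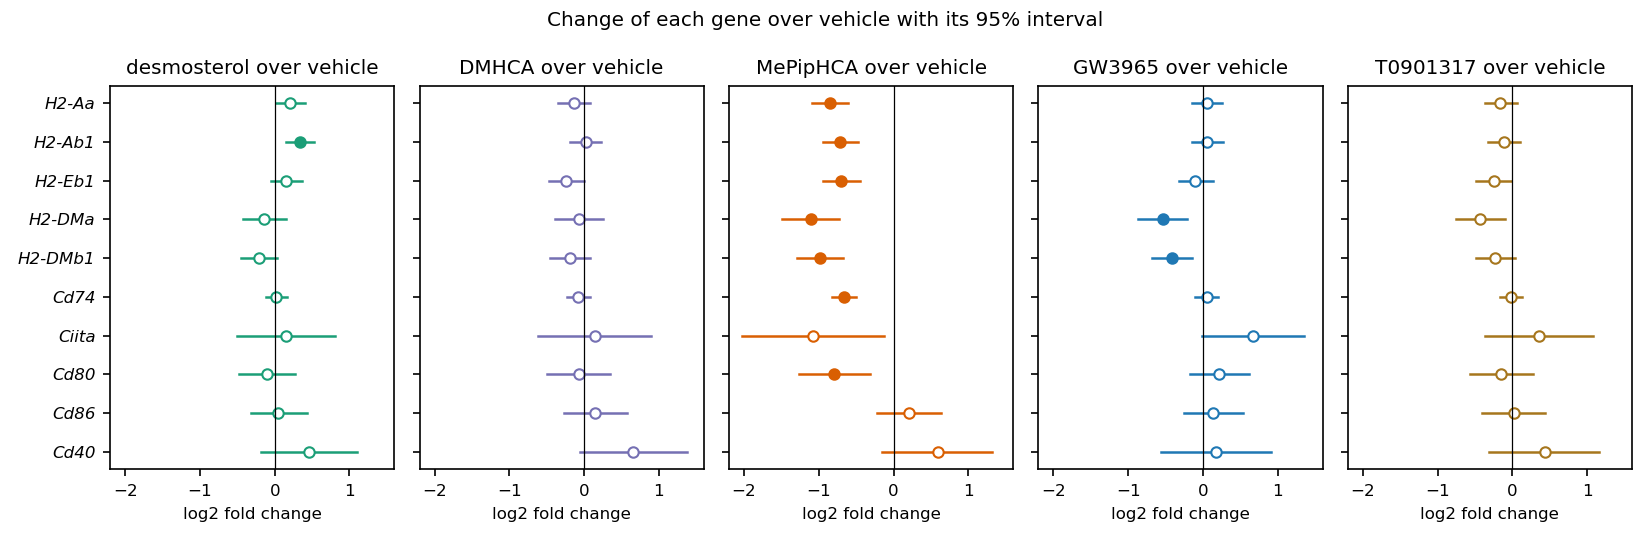
Log2 fold change over vehicle of the 10 genes for each ligand, with 95% intervals derived from the edgeR F statistic, filled points passing the adjusted threshold. MePipHCA has 7 filled points, all below 0, GW3965 has 2, desmosterol has 1 above 0, and DMHCA and T0901317 have none.

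Desmosterol changed 1 of the 10 genes, upward, where 4.93% of all genes rose. H2-Ab1 measured 38.9, 45.1 and 35.9 CPM with desmosterol against 31.1 to 32.1 CPM in vehicle, all libraries higher, and rose by 0.34 ± 0.09 (adjusted p = 0.0125). Without desmosterol replicate 2, the highest library, the rise was 0.24 and did not pass (adjusted p = 0.139). H2-Aa at 42.4, 42.0 and 38.1 CPM overlapped the highest vehicle library, with a change of 0.21 ± 0.09 (adjusted p = 0.165). H2-Eb1 lay above vehicle in all 3 libraries, at 26.3 to 30.4 CPM, with a change of 0.15 ± 0.10 that did not pass (adjusted p = 0.403). Cd74 differed by 0.02 (−0.12 to 0.17) and Ciita by 0.15 (−0.50 to 0.81), and neither passed.

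With GW3965, 2 of the 10 genes fell, both of them DM genes, where 6.69% of all genes fell. H2-DMa measured 11.7, 7.12 and 8.08 CPM, its highest library overlapping the lowest vehicle library, and fell by 0.54 ± 0.16 (adjusted p = 0.02). H2-DMb1 measured 13.4, 14.8 and 18.0 CPM, all below vehicle, and fell by 0.42 ± 0.13 (adjusted p = 0.0267). Both calls were close to the threshold: the adjusted p of H2-DMa was 0.0665 with DESeq2 and 0.0654 with limma on RPKM, and that of H2-DMb1 0.0647 and 0.0595. The H2-DMa call also did not pass without vehicle replicate 1 (0.0714) or 2 (0.0542) or GW3965 replicate 2 (0.183) or 3 (0.123). The H2-DMb1 call did not pass without vehicle replicate 3 (0.124) or GW3965 replicate 1 (0.134) or 2 (0.131). The chains were close to vehicle, with H2-Aa at 0.05 (−0.15 to 0.26), H2-Ab1 at 0.06 (−0.14 to 0.27) and Cd74 at 0.05 (−0.10 to 0.20). Cd80 at 6.48 to 7.70 CPM lay above every vehicle library, with a change of 0.22 (−0.17 to 0.61) that did not pass. Ciita stood at 4.75, 2.33 and 2.58 CPM with GW3965, overlapping vehicle by its lowest library, with a change of 0.67 (−0.01 to 1.35) that did not pass (adjusted p = 0.229). Beside these, the dendritic cell marker sum was 513 to 544 CPM with GW3965 and 811 to 857 CPM in vehicle, with Itgax down by 0.68 ± 0.05, and the B cell sum was 89.8 to 95.4 and 124 to 129 CPM, with Cd22 down by 0.45 ± 0.06. Of 8 macrophage markers 2 rose, among them Mertk (0.85 ± 0.05), and 4 fell, among them C1qa (−0.48 ± 0.09) and the integrin Itgam (−0.44 ± 0.05). Of 6 stromal markers 1 fell. The part of these marker shifts in the fall of the DM genes was not tested.

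DMHCA changed none of the 10 genes in edgeR, where 11.7% of all genes changed, with 1 at an unadjusted p under 0.05, 0 of 10 in DESeq2 and 0 of the 9 that limma tested on RPKM, Ciita being under its filter in every comparison. That gene was H2-Eb1, at 18.1, 21.0 and 23.8 CPM and all below vehicle, with a change of −0.24 ± 0.11 (adjusted p = 0.212). T0901317 likewise changed 0 of 10 in edgeR and DESeq2 and 0 of 9 in limma, against 12.8% of all genes, with 2 at an unadjusted p under 0.05. These were H2-DMa, at 9.67, 8.52 and 9.64 CPM and all below vehicle, with a change of −0.43 ± 0.17 (adjusted p = 0.0842), and H2-Eb1, at 20.6 to 22.6 CPM, with a change of −0.25 ± 0.11 (adjusted p = 0.177). Cd86 and Cd40 did not pass with any ligand, Cd86 lying within 0.02 to 0.21 and Cd40 within 0.17 to 0.66 of vehicle on the log2 scale. Cd40 was above every vehicle library with DMHCA, at 2.14 to 3.14 CPM, but its interval (−0.06 to 1.37) included 0.

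Ratios within a library do not depend on its scaling. Per 100 counts of the 3 chains, the 2 DM genes gave 38.5, 34.5 and 36.8 counts in vehicle. With desmosterol the ratio was 30.4, 23.3 and 28.6, with GW3965 22.9, 25.6 and 29.4, and with MePipHCA 32.7, 24.2 and 32.9. In these 3 groups every library was below every vehicle library, and a two-sided exact permutation test gave p = 0.1, the smallest that 3 against 3 libraries allow (0.25 after Benjamini-Hochberg adjustment over 15 ratio tests). DMHCA at 31.4 to 39.1 and T0901317 at 32.1 to 35.8 overlapped vehicle (exact p = 0.9 and 0.2). The Cd86 to Cd80 count ratio was 1.10, 1.49 and 1.03 in vehicle and 3.53, 1.62 and 2.26 with MePipHCA, all higher (exact p = 0.1, adjusted 0.25). Counts of Cd74 per chain count were 1.2 to 1.21 in vehicle and 1.2 to 1.38 with MePipHCA, overlapping (exact p = 0.4). That ratio lay below vehicle in every desmosterol library (0.97 to 1.1) and above it in every T0901317 library (1.26 to 1.45), each with exact p = 0.1 (adjusted 0.25).

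**Figure D3:**
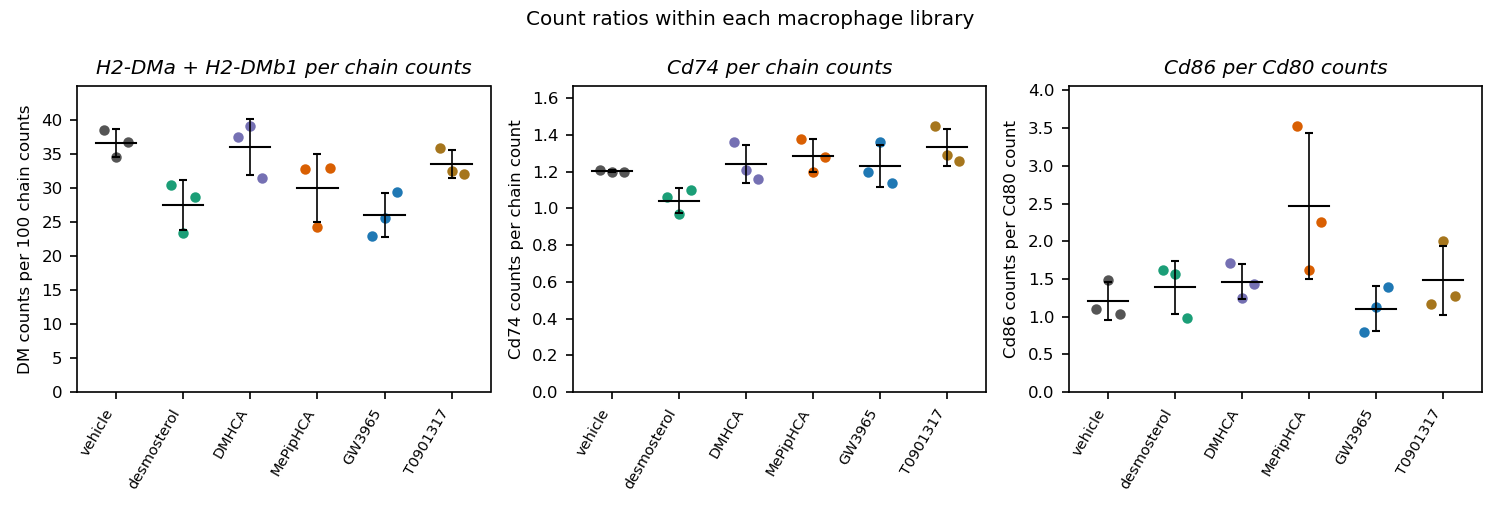
Count ratios within each macrophage library on linear axes from 0: H2-DMa plus H2-DMb1 per 100 counts of H2-Aa, H2-Ab1 and H2-Eb1, Cd74 per chain count, and Cd86 per Cd80 count, with points for libraries, bars for means and whiskers for SD (n = 3). The DM ratio of desmosterol, MePipHCA and GW3965 libraries lay between 22.9 and 32.9, below the vehicle range of 34.5 to 38.5, and the Cd86 ratio of the MePipHCA libraries (1.62 to 3.53) lay above that of vehicle (1.03 to 1.49).

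Ligands at the matched dose of 1 uM were compared directly in 4 pairs. The 2 cholenamides, which differ in the amide, differed from each other in 7 of the 10 genes, all lower with MePipHCA, where 12.1% of all genes were lower. H2-Aa was lower by 0.72 (interval −0.98 to −0.46, adjusted p = 3.49e-05), H2-DMa by 1.04 (−1.46 to −0.63, adjusted p = 0.000135) and Cd74 by 0.59 (−0.76 to −0.41, adjusted p = 7.71e-07). The other 4 were H2-Ab1 (−0.73 ± 0.12), H2-DMb1 (−0.79 ± 0.17), H2-Eb1 (−0.46 ± 0.14) and Cd80 (−0.71 ± 0.26, adjusted p = 0.045). H2-Eb1 did not pass without DMHCA replicate 3 (adjusted p = 0.13). Cd80 passed in 4 of 14 alternative settings. It did not pass in DESeq2 (0.0913), with library totals (0.0546), without the filter (0.064), at equal depth (0.172) or with the replicate number as a block (0.0508), nor without DMHCA replicate 1 (0.0691) or 2 (0.248) or MePipHCA replicate 1 (0.112), 2 (0.0656) or 3 (0.139). No difference passed for Ciita (−1.22, interval −2.26 to −0.18, adjusted p = 0.0836), Cd86 (0.05, −0.41 to 0.52) or Cd40 (−0.07, −0.85 to 0.71).

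MePipHCA against T0901317 also gave 7 genes lower, where 13.9% of all genes were lower. They were the 6 class II genes, by 0.45 (H2-Eb1) to 0.76 (H2-DMb1) on the log2 scale, and Ciita. Ciita measured 3.72, 2.00 and 2.09 CPM with T0901317 and 0.65, 1.42 and 0.73 CPM with MePipHCA, without overlap, a difference of −1.44 ± 0.49 (adjusted p = 0.026). The Ciita call did not pass without MePipHCA replicate 1 (0.0929) or 3 (0.131), without T0901317 replicate 1 (0.108) or at equal depth (0.0609). The H2-DMa call did not pass without MePipHCA replicate 1 (0.0511) or 2 (0.0623) or T0901317 replicate 3 (0.0739). Cd80 was lower by 0.63 (−1.17 to −0.10) and did not pass (adjusted p = 0.0721), but did so without T0901317 replicate 2 (0.0408).

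GW3965 and T0901317 differed in 0 of 10 genes in edgeR and DESeq2 and in 0 of 9 in limma, with 0 at an unadjusted p under 0.05, and 0.0173% of all genes differed. The interval of the difference was −0.09 to 0.23 for Cd74, −0.02 to 0.44 for H2-Aa and −0.49 to 0.27 for H2-DMa. DMHCA and T0901317 likewise differed in 0 of 10 in edgeR and DESeq2 and in 0 of 9 in limma, with 0 at an unadjusted p under 0.05, against 5.12% of all genes. Their difference lay within −0.22 to 0.26 for H2-Aa and −0.01 to 0.73 for H2-DMa, whose DMHCA libraries (10.5 to 14.5 CPM) all lay above those of T0901317 (8.52 to 9.67 CPM). Desmosterol was given at 10 uM and was set against no other ligand.

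The further genes of the pathway were described by lists. Over all genes tested, 17.2% rose and 18.3% fell with MePipHCA, 4.93% and 4.57% with desmosterol, 5.8% and 5.9% with DMHCA, 6.54% and 6.69% with GW3965, and 6.29% and 6.55% with T0901317, with median changes within 0.003 of 0. The class II genes H2-Eb2, H2-Oa, H2-Ob and H2-DMb2, had 18, 7, 49 and 41 counts over all 18 libraries and were too low to test. Of 7 class II promoter factors (RFX subunits, NF-Y subunits and CREB1), 1 fell with MePipHCA and none rose, with a list median of 0.06 beside 0.003 for all genes. It was Rfx5, the DNA-binding RFX subunit, which went from 9.42 ± 0.285 to 6.68 ± 0.754 CPM (n = 3), a change of −0.49 ± 0.19 (adjusted p = 0.0371). With the other 4 ligands no promoter factor passed, although Rfx5 measured −0.52 ± 0.18 with DMHCA (adjusted p = 0.0568), −0.49 ± 0.18 with GW3965 (0.0613), −0.33 ± 0.18 with T0901317 (0.267) and −0.32 ± 0.16 with desmosterol (0.235), and every library of each group was below vehicle.

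Of 12 genes between interferon gamma and CIITA, 2 rose and 5 fell with MePipHCA (median −0.10). Irf1, a factor that activates the Ciita promoter, fell from 62.3 ± 1.52 to 29.0 ± 1.65 CPM (n = 3), by 1.11 ± 0.09 (adjusted p = 5.44e-13), and Irf4 fell by 1.02 ± 0.36 (adjusted p = 0.0253). Irf1 fell with the other ligands as well, by 0.52 ± 0.08 with desmosterol, 0.55 ± 0.09 with DMHCA, 0.35 ± 0.08 with GW3965 and 0.34 ± 0.08 with T0901317. Irf8, a myeloid factor, rose with all 5, from 189 ± 5.88 CPM in vehicle to 271 ± 9.37 with MePipHCA and 321 ± 22.8 with T0901317. The receptor chain Ifngr1 rose with desmosterol (0.47 ± 0.06), DMHCA (0.68 ± 0.06), GW3965 (0.76 ± 0.06) and T0901317 (0.76 ± 0.06), and with MePipHCA from 147 ± 2.89 to 187 ± 5.59 CPM.

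Among 11 genes for loading proteases and trafficking, more rose than fell with every ligand: 5 against 2 with MePipHCA, 6 against 0 with desmosterol, 6 against 0 with DMHCA, 5 against 3 with GW3965 and 4 against 1 with T0901317. The list median was 0.11 with MePipHCA and 0.09 to 0.21 with the others. Cathepsin L (Ctsl), which trims the invariant chain, rose from 4200 ± 109 to 8650 ± 84.0 CPM (n = 3) with MePipHCA, by 1.04 ± 0.05 (adjusted p = 7.17e-22), and by 0.30 to 0.68 with the other ligands. The asparaginyl endopeptidase Lgmn rose with every ligand, from 0.29 ± 0.06 with desmosterol to 0.46 ± 0.06 with GW3965. March1, a ubiquitin ligase that removes class II and CD86 from the cell surface, fell with MePipHCA from 98.8 ± 2.29 to 53.2 ± 6.04 CPM, by 0.89 ± 0.07 (adjusted p = 4.3e-13). Tmem173, counted in this list although it encodes the innate immune adaptor STING, fell by 0.79 ± 0.12 with MePipHCA and by 0.34 ± 0.11 with GW3965.

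Of 16 other costimulatory and coinhibitory ligands 11 could be tested, and 3 rose and 7 fell with MePipHCA (median −0.48). The ICOS ligand Icosl fell from 2.14 ± 0.503 to 0.746 ± 0.120 CPM (n = 3), by 1.49 ± 0.44 (adjusted p = 0.00713), the adhesion molecule Icam1 by 1.35 ± 0.13 and the nectin Pvrl2 by 1.58 ± 0.25. Icam1 also fell with desmosterol (−0.39 ± 0.10), DMHCA (−0.76 ± 0.12), GW3965 (−0.76 ± 0.11) and T0901317 (−0.99 ± 0.12). With the other ligands 1 to 2 of the 11 rose and 2 to 5 fell. Cd276, which encodes B7-H3, fell by 0.66 ± 0.17 with DMHCA, 0.79 ± 0.17 with GW3965 and 0.61 ± 0.17 with T0901317. Cd83, a marker of activated antigen-presenting cells, fell by 0.66 ± 0.08 with MePipHCA, 0.39 ± 0.08 with GW3965, 0.36 ± 0.08 with T0901317 and 0.25 ± 0.08 with DMHCA, and its change of −0.15 ± 0.07 with desmosterol did not pass.

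Of 12 genes of CD40 signalling, 1 rose and 3 fell with MePipHCA, among them the adaptor Traf1 (−0.92 ± 0.26) and the NF-κB subunit Nfkb2 (−0.60 ± 0.08), while the adaptor Traf6 rose by 0.52 ± 0.09. Nfkb2 also fell with desmosterol (−0.42 ± 0.07), DMHCA (−0.56 ± 0.08), GW3965 (−0.25 ± 0.08) and T0901317 (−0.35 ± 0.08). Relb, which partners it in the non-canonical NF-κB pathway downstream of CD40, fell by 0.45 ± 0.10 with desmosterol, 0.70 ± 0.11 with DMHCA, 0.36 ± 0.11 with MePipHCA, 0.39 ± 0.11 with GW3965 and 0.49 ± 0.11 with T0901317. Of 13 class I presentation genes 2 rose and 7 fell with MePipHCA (median −0.32). The immunoproteasome subunit Psmb9 fell by 0.89 ± 0.12 and H2-K1 by 0.57 ± 0.05, while the chaperone Pdia3 rose by 0.77 ± 0.06. H2-K1 fell with desmosterol (−0.33 ± 0.04) and DMHCA (−0.27 ± 0.05) and rose with GW3965 (0.39 ± 0.04) and T0901317 (0.27 ± 0.05).

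**Figure D4:**
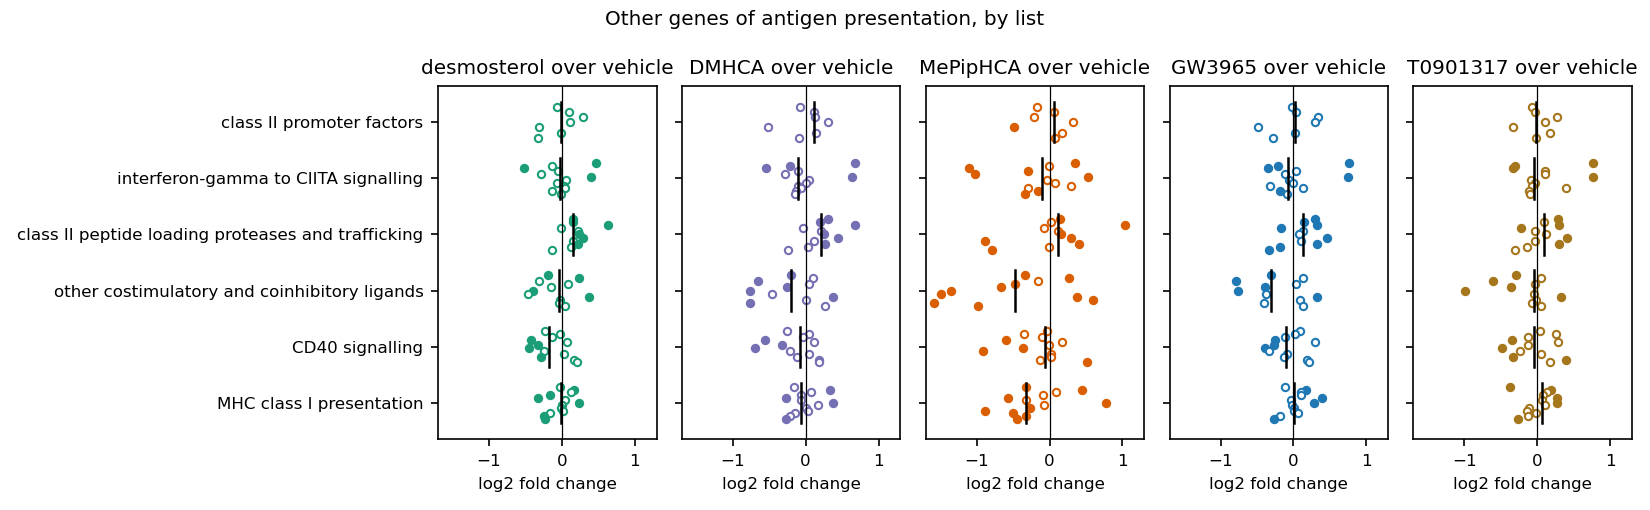
Log2 fold change over vehicle of each tested gene of 6 lists for the 5 ligands, with filled points passing the adjusted threshold and a black bar at the list median. With MePipHCA the list medians were −0.48 for the other costimulatory ligands and −0.32 for class I presentation.

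Genes with the most similar pattern were sought by the root mean square difference between their 5 log2 changes over vehicle and those of a given member, among all other tested genes. Nearest to H2-Ab1 were the leukotriene receptor Cysltr1 (0.071), Gstt3 (0.091) and Ska2 (0.094). H2-Aa ranked 6, Cd74 36 and H2-Eb1 57 of 11543 genes by nearness to H2-Ab1, while H2-DMb1 ranked 3397 and H2-DMa 5695. For Ciita the nearest were Eln (0.110), Serpinb1a (0.133) and 1700003F12Rik (0.142). Near Cd80 were Klhdc1 (0.087) and Tmem238 (0.093), near Cd86 were Rtcb (0.020), Usp9x (0.022) and Hltf (0.024), and near Cd40 were Dnah11 (0.073), Ak8 (0.105) and Ptp4a1 (0.109). The patterns share the vehicle libraries and are a description.

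In hepatocytes the 10 genes were low, and 6 of them were among the 13176 genes tested. Ciita had 0 counts in 8 of 12 libraries and H2-Aa in 6 of 12. H2-Ab1 and Cd40 had counts in every library, 5 to 59 and 13 to 48. The 1 change that passed among the 6 genes was in Cd74 with GW3965, where 0.364% of all genes rose. Outside GW3965 no library held more than 10 counts of Cd74. Its place among the tested genes thus rested largely on the group where it was high, and the call is a description. Cd74 had 90 and 69 counts with GW3965 and 2 and 0 with vehicle, with no overlap, a ratio per library total of 48 (95% exact interval 13.1 to 400, counting error only) and an edgeR log2 change of 5.55 ± 1.04 (adjusted p = 0.00512). The call did not pass without GW3965 replicate 1 (adjusted p = 0.187) or without vehicle replicate 1 (0.0632) or 2 (0.129). Markers of Kupffer cells, the liver's macrophages, rose beside it, 2 of 4: Clec4f had 191 and 137 counts with GW3965 and 27 and 4 with vehicle, and Cd5l had 208 and 190 against 18 and 6. The other 2, Marco (−0.64 ± 0.26, adjusted p = 0.437) and Vsig4 (0.09 ± 0.69, adjusted p = 0.99), did not pass. The summed Kupffer level was 28 to 41.7 CPM with GW3965 and 17.8 to 21.2 CPM with vehicle. The 10 macrophage markers summed to 378 to 418 CPM with GW3965 and 348 to 376 CPM with vehicle, and of the 9 tested none passed, among them Csf1r with 119 and 111 counts against 38 and 15 (1.45 ± 0.47, adjusted p = 0.253). That list went in both directions, with Itgam at −1.45 ± 1.05, Lyz2 at −0.84 ± 0.43, C1qa at 1.24 ± 0.53 and Mertk at 0.93 ± 0.36. The 8 dendritic cell markers summed to 4.74 to 8.77 CPM with GW3965 and 3.17 to 5.68 CPM with vehicle. Cd5l also rose in macrophages, by 2.14 ± 0.07 with GW3965. The part of Kupffer cells in the Cd74 counts was not tested.

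**Figure D5:**
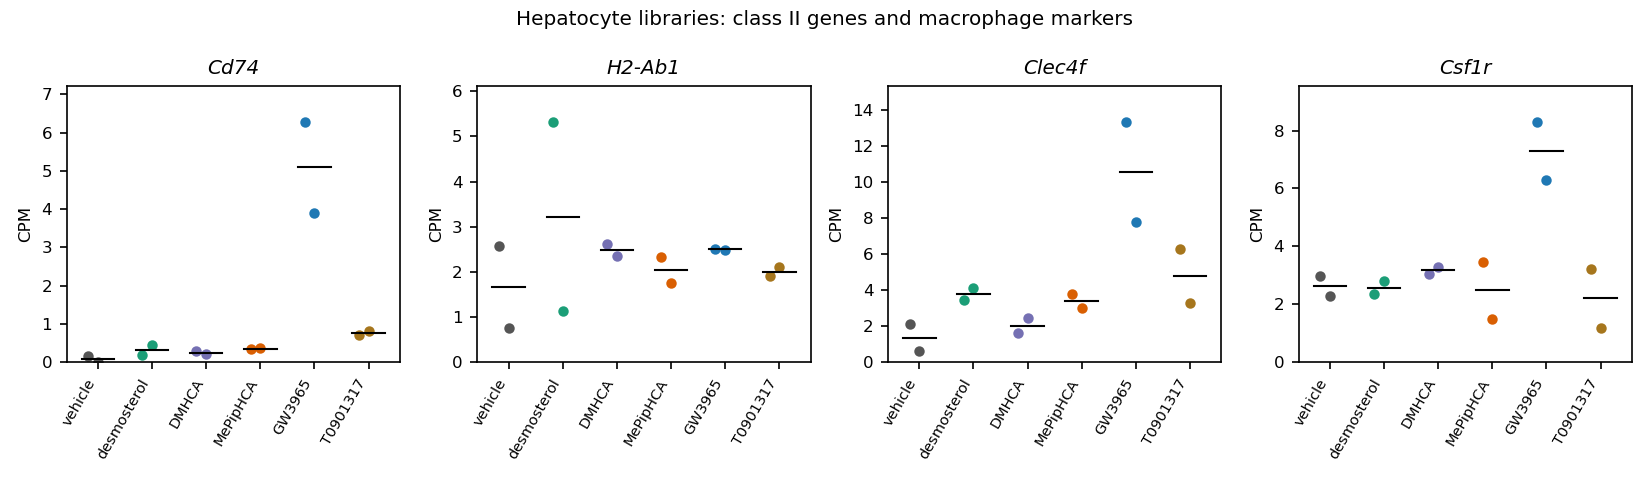
CPM in each hepatocyte library (n = 2 per group, bar at the mean, linear axes from 0) of Cd74, H2-Ab1, the Kupffer cell gene Clec4f and the macrophage receptor Csf1r. The GW3965 libraries stand apart for Cd74 (6.28 and 3.90 CPM), Clec4f (13.3 and 7.75 CPM) and Csf1r (8.30 and 6.28 CPM) and not for H2-Ab1 (2.51 and 2.49 CPM). Csf1r did not pass the test (adjusted p = 0.253 in edgeR). Both markers were chosen after their values were seen. Other markers of their lists went in both directions, Cd5l, C1qa and Mertk upward and Marco, Itgam and Lyz2 downward.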

How the data were processed

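The submitters' processing notes name STAR, HOMER and the build mm10, without versions. The deposited count tables hold raw exon counts of 1 transcript per gene, per the file headers. The authors' deposited RPKM tables scale counts by transcript length and library total, also per the file headers; they gave the order of levels. For Cd74, Ciita and Cd40 the RPKM table names another transcript, whose values imply 93.1%, 97.7% and 98.1% of the counts. No strand setting appears in the headers, and overlapping genes on opposite strands may share counts.

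The 6 macrophage groups (3 libraries each) were fitted together with edgeR 4.0.16 in R 4.3.3: filterByExpr, TMM scaling, a quasi-likelihood test with 12 residual degrees of freedom, a biological coefficient of variation of 0.0554, Benjamini-Hochberg adjustment over all genes, threshold 0.05. CPM values are on TMM-scaled libraries. Hepatocytes (2 libraries a group, 6 residual degrees of freedom) were fitted in the same way; that fit, the ratio tests and the promoter letters were added after seeing the data. Alternatives were RLE scaling, library totals, DESeq2 1.42.0, no filter, 2 groups only, a replicate block, thinning to 3862655 counts, leaving out each replicate, and limma 3.58.1 on log2 RPKM (pseudocount 0.1, mean RPKM of at least 0.5).

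The genes and lists were chosen with earlier results of these data known. The rule for named genes takes the 10 genes, Abca1, the up to 3 called genes of each list and ligand whose log2 change is largest, and the 3 nearest in pattern to H2-Ab1, Ciita, Cd40, Cd80 and Cd86. Marker lists are given by counts and sums. Values chosen after they were seen were those of Csf1r, C1qa, Mertk, Itgam, Itgax, Cd22, Cd5l, Clec4f, Marco, Vsig4 and Lyz2. So were those of Ifngr1, Relb, Rfx5 where not called and, with DMHCA, desmosterol or MePipHCA, Cd83. Adgre1 and Ighm were not used here, and some genes the rule takes are not reported here.

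Marker lists not described elsewhere gave these sums in vehicle and MePipHCA macrophages: T and NK cell 2.86 to 3.50 and 0.650 to 0.943 CPM, resident peritoneal macrophage 14.9 to 19.3 and 6.84 to 11.0 CPM, Kupffer cell 48.7 to 52.8 and 150 to 159 CPM, with Clec4f at 0, and hepatocyte 691 to 734 and 517 to 520 CPM, with Ttr and Fgb at 0 and Trf giving nearly all.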

Additional observations from a re-analysis of the deposited data

Results flagged for a closer look

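Outside the macrophage comparisons, 3 class II genes in hepatocytes stood above a counting limit taken from the vehicle libraries. The limit is the higher of the upper exact Poisson bounds of the 2 vehicle libraries and covers counting error only. With GW3965 the lower of the 2 libraries measured 0.68 CPM for H2-Aa (limit 0.56), 1.4 CPM for H2-Eb1 (limit 0.91) and 3.9 CPM for Cd74 (limit 0.56). H2-Aa was too low to test in hepatocytes. The H2-Eb1 change of 2.53 ± 1.22 with GW3965 did not pass in edgeR (adjusted p = 0.586). With T0901317 the lower library measured 0.7 CPM for Cd74 (limit 0.56). Cd74 with T0901317 had 10 and 9 counts against 2 and 0 in vehicle, and its change of 2.83 ± 1.16 on the log2 scale did not pass in edgeR (adjusted p = 0.294). The summed Kupffer cell markers were 28 to 41.7 CPM with GW3965, 18.2 to 34.2 CPM with T0901317 and 17.8 to 21.2 CPM with vehicle, and their part in these values was not tested.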

How the results depend on the processing

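No result reversed, and 1218 of 1256 values of single genes and 116 of 126 counts of called genes kept their direction and their side of the threshold. The GW3965 count of 2 became 0 with DESeq2 and with limma on RPKM, and 0 to 1 when 1 library was left out. The desmosterol count of 1 became 0 with limma and 0 to 1 when 1 library was left out. Leaving out 1 library gave 7 of 10 for MePipHCA against vehicle in every case, 6 against DMHCA and 5 to 8 against T0901317. With limma, which was chosen after seeing the data, H2-Ab1 with desmosterol had an adjusted p of 0.116. The causes were not tested.

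The labels do not say whether replicate numbers pair the samples. In no comparison did all 3 same-numbered pairs correlate over 0.1 in their deviations, which cannot exclude pairing. The desmosterol and vehicle pairs gave 0.28, 0.13 and −0.09. The replicate block left the count for MePipHCA against vehicle at 7 and changed 1 call, that of Cd80 between MePipHCA and DMHCA (adjusted p = 0.0508).

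Over all genes, 1097 calls with desmosterol became 632 at equal depth, 577 with limma and 665 without vehicle replicate 2. DMHCA went from 1350 to 898 without vehicle replicate 2, and DMHCA against T0901317 from 591 to 336 without DMHCA replicate 3. GW3965 against T0901317 went from 2 to 15 without the filter, 8 with 2 groups only, 1 at equal depth, 0 with limma, 0 without GW3965 replicate 1 or T0901317 replicate 2, and 1 without GW3965 replicate 2 or T0901317 replicate 3. Other scalings moved the median of all genes by at most 0.055 on the log2 scale. DESeq2 gave no adjusted p for Ciita and Cd40 with desmosterol or for hepatocyte Cd74 with GW3965, and these were left out. Ciita was under the limma filter, and under the filter of the fit on 2 groups for MePipHCA against DMHCA and T0901317. Low counts limit Ciita, Cd40 and Cd80 most.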
